A study of Homo sapiens with 12 samples.

Results

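The comparison is that of new miRNA synthesis in Huh7 cells with and without inhibition of splicing, and its members are the 159 of 2652 mature miRNAs that had more than 100 CPM (reads scaled to a common library total) in each of the 8 libraries compared. Huh7 is a human hepatocellular carcinoma line that keeps much of the miRNA pattern of hepatocytes, and all libraries come from this 1 line. In the PlaB group, cells received pladienolide B (PlaB), a small molecule that blocks the SF3B1 subunit of the U2 snRNP, together with 500 µM 4-thiouridine (4SU) for 4 h. In the DMSO group, cells received the solvent with the same 4SU for the same time, and in the Control group the solvent without 4SU, which gives the background of T>C conversion. The methods give 1 µM as the dose of PlaB and the sample labels 500 µM. The figure in the labels equals the dose of 4SU, so the dose in the methods is the one taken here. Each group holds 4 libraries, 1 from each of 4 independent experiments, and the 4 Control libraries did not enter the comparison itself. The DMSO libraries of replicates 1 and 2 combine 3 sequencing runs each, from the original, a re-amplified and a re-prepared library. Next to the minimum of 100 CPM, the lowest CPM over the 8 libraries was 103 for miR-374b-3p and 105 for miR-942-5p, just inside, and 99.8 for miR-27b-5p and 97.5 for miR-296-3p, just outside.

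A miRNA is transcribed by RNA polymerase II as part of a long primary transcript, often a spliced host gene, from whose introns or exons the Microprocessor complex cuts the hairpin while transcription is still going on. Dicer then cuts the hairpin into a duplex, one or both arms of which are loaded into Argonaute and pair with target mRNAs mainly through the seed, bases 2 to 8. Mature miRNAs loaded in this way are commonly long-lived. 4SU enters RNA made during the labelling and, once alkylated, is read as C. The T>C conversion rate, here the conversions of a miRNA as a percentage of its sequenced T positions, therefore rises with the share of that miRNA made within the 4 h, and its reads measure the whole pool. Many new molecules carry no conversion, and the rate also depends on the U content, so rates are compared between groups for 1 miRNA and not between miRNAs.

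The sequences that carry the comparison are given first, with the seed in capitals, taken from RefSeq on GRCh38.p14 (141 of the 159 miRNAs were matched). The miRNAs of the first set are examples of those that lost more or less than the typical miRNA between DMSO and PlaB, as described below.

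miR-122-5p: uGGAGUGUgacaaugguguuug
miR-101-3p: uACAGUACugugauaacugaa
miR-181a-5p: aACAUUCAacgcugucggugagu
miR-181a-2-3p: aCCACUGAccguugacuguacc
miR-21-5p: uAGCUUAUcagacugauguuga
miR-7-5p: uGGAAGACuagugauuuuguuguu
miR-25-5p: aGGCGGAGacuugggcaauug

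miR-122-5p, the most liver-specific of miRNAs, comes from the hairpin MIR122 (chromosome 18, 58451074 to 58451158, plus strand), in an exon of MIR122HG. miR-101-3p, a miRNA that represses EZH2, was matched to MIR101-2 in an intron of RCL1 (chromosome 9, 4850297 to 4850375), and 93.3% of its reads are multi-mapping. Those reads cannot be credited to this hairpin alone. miR-181a-5p has the hairpins MIR181A1 and MIR181A2 in introns of MIR181A1HG and MIR181A2HG, whereas miR-181a-2-3p comes from MIR181A2 alone (chromosome 9, 124692442 to 124692551). MIR21, the source of miR-21-5p, lies on chromosome 17 from 59841266 to 59841337, where an exon of VMP1 is annotated. miR-7-5p was matched to MIR7-1 in an annotated exon of HNRNPK and to MIR7-3 in an intron of MIR7-3HG, and 96.4% of its reads are multi-mapping. Its copies, matched or not, cannot be told apart. MIR25 lies in an intron of MCM7 (chromosome 7, 100093560 to 100093643, minus strand). Intron and exon follow GENCODE version 44, in which a hairpin counts as exonic where any transcript on its strand has an exon over it.

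The second set shares the seed AUUGCAC, and is shown because it holds both miR-92a-3p, which lost more than the typical miRNA, and miR-25-3p, which lost less.

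miR-25-3p: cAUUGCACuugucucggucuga
miR-32-5p: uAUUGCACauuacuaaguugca
miR-92a-3p: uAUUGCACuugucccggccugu
miR-92b-3p: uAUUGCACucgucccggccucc

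The third set shares the seed AGCAGCA of the cell cycle repressors miR-15 and miR-16.

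miR-15a-5p: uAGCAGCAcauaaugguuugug
miR-15b-5p: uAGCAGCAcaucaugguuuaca
miR-16-5p: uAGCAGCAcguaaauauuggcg
miR-424-5p: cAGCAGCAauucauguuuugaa

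The DMSO libraries held 1968612 to 3880241 reads on miRNAs and the PlaB libraries 1522210 to 1979696, the deepest being DMSO replicates 1 and 2. The number of members without a single conversion was 12 to 27 in DMSO, 30 to 44 in PlaB and 54 to 70 in Control. The hepatocyte markers miR-122-5p, miR-192-5p and miR-194-5p together held 108992 to 148318 CPM in DMSO and 106876 to 143857 CPM in PlaB. The summed markers of erythroid cells, leukocytes and striated muscle were at most 10.3 CPM in any DMSO or PlaB library, and those of neurons at most 54.9 CPM. The markers of smooth muscle and fibroblasts, miR-143-3p and miR-145-5p, summed to 89.4 to 159 CPM over the 8 libraries.

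The rate of new synthesis was lower in PlaB for 72 of 159 miRNAs, while 3 differed in total reads. Averaged over the 159 miRNAs, the T>C conversion rate was 0.342, 0.393, 0.338 and 0.363% in the DMSO libraries of replicates 1 to 4 and 0.217, 0.223, 0.194 and 0.170% in those of PlaB. All PlaB libraries thus lay below all DMSO libraries, with means of 0.201% ± 0.0244 and 0.359% ± 0.0255 (SD, n = 4), against 0.0244% ± 0.00176 in Control. The difference was -0.158 percentage points (two-sided exact permutation test, p = 0.0286, the smallest that 4 libraries against 4 allow). With the libraries paired by experiment, an exact sign-flip test gave p = 0.125, the smallest for 4 pairs. PlaB kept 0.560 of the DMSO mean, or 0.528 after the Control mean was subtracted from both.

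In edgeR's quasi-likelihood test of conversions, with covered T positions as offset and the experiment as a block, the rate of 72 of the 159 miRNAs (45.3%) was lower in PlaB at a Benjamini-Hochberg adjusted p under 0.05. None was higher (0.00%), 0 also at an unadjusted p under 0.05, and DESeq2 gave 0 as well. The 4 PlaB libraries lay below the 4 DMSO libraries for 68 miRNAs (42.8%). The mean rate was lower in PlaB for 133 miRNAs, higher for 19 and equal for 7, the last having no conversion in any of the 8 libraries. Without DMSO replicates 1 and 2 the number with a lower rate was 41.

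The size of the fall varied widely. Of the 73 miRNAs with a mean of 20 or more conversions per library, called well covered below, 53 had a lower rate in PlaB. Over these 73, the median log2 fold change of the rate was -1.25 and the values ran from -3.49 to 0.38. The SD between miRNAs was 0.75 against a median standard error (SE) of 0.29. A change of labelling that touches all miRNAs alike cannot be told apart from a fall of synthesis common to all. Each miRNA was therefore also tested against the typical miRNA, by adding to the offset a library factor, the median log rate of the 73 miRNAs, which differed by -1.13 (log2) between PlaB and DMSO. In this test 13 miRNAs (8.18%) lost more than the typical miRNA and 9 (5.66%) lost less. Where the pooled rate of each library stood in place of the median, these counts were 25 and 6.

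**Figure D1:**
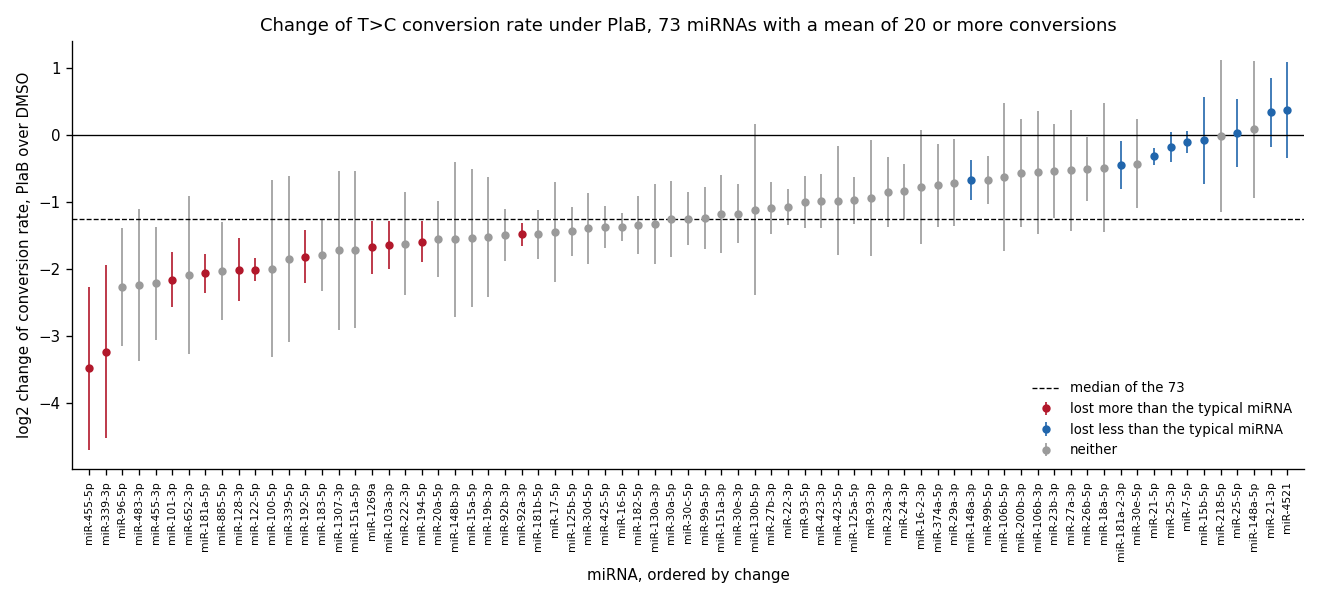
Log2 change of the T>C conversion rate (PlaB over DMSO, vertical axis) for the 73 miRNAs with a mean of 20 or more conversions per library, ordered along the horizontal axis. Points are edgeR estimates with 95% intervals, coloured by the test against the typical miRNA, and the dashed line is their median of -1.25. miR-455-5p stands lowest at -3.49, and the blue points that lost less end with miR-21-3p and miR-4521, above 0.

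Among those that lost more, miR-122-5p was the most abundant after miR-92a-3p. The rates of miR-122-5p were 0.286, 0.325, 0.370 and 0.311% in DMSO and 0.0766, 0.0852, 0.0787 and 0.0788% in PlaB, against a mean of 0.0418% in Control. The groups lay far apart, and the PlaB values were closer to Control than to DMSO. The log2 fold change was -2.01 (SE 0.09, adjusted p = 2.47e-74, edgeR), 0.88 further down than the typical miRNA on the log2 scale (-0.88, adjusted p = 6.48e-19, edgeR). This call held in all 16 alternatives in which it was tested, with adjusted p up to 0.000764.

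miR-101-3p had rates of 0.514, 0.543, 0.569 and 0.402% in DMSO and of 0.0706, 0.168, 0.177 and 0.0681% in PlaB. Replicates 1 and 4 of PlaB were the lowest, and all 4 lay below DMSO. Its log2 fold change was -2.16 (SE 0.21), or -1.03 against the typical miRNA (adjusted p = 1.61e-05, edgeR, at most 0.0272 over 15 alternatives). miR-181a-5p, known for its part in lymphocyte development, fell from 1.23, 1.13, 0.860 and 1.06% to 0.236, 0.223, 0.272 and 0.290%. This is a log2 fold change of -2.06 (SE 0.15), or -0.93 against the typical miRNA (adjusted p = 1.23e-08, edgeR, at most 0.00561 over 15 alternatives). miR-122-5p, miR-101-3p and miR-181a-5p were the 3 of the 13 whose call held in every alternative tried.

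The largest fitted decreases were those of miRNAs with few reads and few conversions. miR-335-5p, from an intron of MEST, had rates of 0.238, 0.416, 0.457 and 0.565% in DMSO (73 conversions) and no conversion in PlaB. A count of 0 allows a PlaB rate of up to 0.0314%, taking 3 conversions over the group as the limit, so that the rate was at least 13.1-fold lower. miR-942-5p (an intron of TTF2) went from 83 conversions to 2, miR-455-5p (an intron of COL27A1) from 210 to 17 and miR-339-3p (an intron of C7orf50) from 182 to 16. Against the typical miRNA, their adjusted p-values in edgeR's test were 0.00787 for miR-335-5p, 0.0359 for miR-942-5p, 0.00233 for miR-455-5p and 0.0134 for miR-339-3p. Each of these 4 calls was lost in 6 or more of 15 alternatives, among them those without DMSO replicate 2, 3 or 4. miR-941, from 5 hairpins overlapping exons of DNAJC5, likewise went from 34 conversions to 0, at least 9.17-fold lower, but did not pass the test against the typical miRNA (adjusted p = 0.0666, edgeR). Of the 10 largest decreases among miRNAs whose groups did not overlap, miR-501-3p (72 conversions to 2), miR-331-3p (33 to 1), miR-32-3p (80 to 3), miR-502-3p (76 to 5) and miR-200c-3p (49 to 3) complete the list. The lower rate of miR-331-3p and of miR-200c-3p did not pass in 9 of 15 alternatives, including each with 1 library left out, nor did that of miR-32-3p in 5 of 15, that of miR-502-3p and of miR-941 in 5 of 14 each, and that of miR-501-3p, miR-335-5p and miR-942-5p without DMSO replicates 1 and 2.

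At the other end, the rates of miR-21-5p, the most abundant miRNA and an established oncogenic one, were 0.389, 0.358, 0.321 and 0.261% in DMSO and 0.316, 0.270, 0.250 and 0.227% in PlaB. The PlaB library was the lower in each of the 4 experiments, and the groups overlapped. The log2 fold change was -0.32 (SE 0.07, adjusted p = 8.14e-06, edgeR), which is 0.82 above the typical miRNA (adjusted p = 2.85e-26, edgeR). The lower rate of miR-21-5p did not pass without DMSO replicates 1 and 2 (adjusted p = 0.0743, edgeR). Its other arm, miR-21-3p, had 1.71, 1.07, 1.10 and 1.06% in DMSO and 1.47, 1.18, 2.19 and 1.46% in PlaB. The highest of its 8 values was thus a PlaB library, the groups overlapped, and the log2 fold change of 0.34 (95% interval -0.18 to 0.85) did not pass the threshold. Against the typical miRNA it stood 1.47 higher (adjusted p = 1.18e-06, edgeR).

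miR-7-5p, a repressor of the EGFR pathway, had a residual synthesis, defined below, of 0.923. Its rates were 0.541, 0.488, 0.770 and 0.587% in DMSO and 0.458, 0.545, 0.690 and 0.514% in PlaB. The PlaB library was the lower in 3 of 4 experiments and the groups overlapped. The log2 fold change was -0.11 (95% interval -0.27 to 0.06), and it passed as lower without DMSO or PlaB replicate 2 (-0.197 in both, adjusted p = 0.0233 and 0.0316, edgeR). With all 8 libraries, its change was 1.02 above the typical miRNA (adjusted p = 2.85e-26, edgeR).

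Both arms of the MIR25 hairpin also lost less than the typical miRNA. miR-25-5p had 3.28, 3.35, 3.01 and 4.08% in DMSO and 3.71, 4.25, 2.76 and 3.38% in PlaB, giving a log2 fold change of 0.03 (95% interval -0.47 to 0.54). The guide arm miR-25-3p had 0.348, 0.422, 0.439 and 0.298% in DMSO and 0.305, 0.311, 0.370 and 0.335% in PlaB, giving a log2 fold change of -0.18 (95% interval -0.41 to 0.05). Its Control mean of 0.181% was close to the labelled values, so its uncorrected change is damped by background. With the Control mean subtracted from both groups, PlaB kept 0.760 of the DMSO rate for miR-25-3p and 1.03 for miR-25-5p. Against the typical miRNA the 2 arms stood 0.95 and 1.16 higher (adjusted p = 2.96e-13 and 0.000148, edgeR). The calls of miR-21-5p, miR-21-3p, miR-7-5p, miR-25-3p and miR-25-5p against the typical miRNA held in every alternative tried.

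The other 4 miRNAs that lost less rest on less. miR-148a-3p lost the call in 10 of 16 alternatives, miR-15b-5p in 8 of 16 and miR-181a-2-3p in 3 of 15. miR-4521 had 0.883, 8.46, 0.631 and 7.95% in DMSO and 8.28, 8.23, 1.39 and 1.20% in PlaB, so that each group held 2 libraries near 8% and 2 at or under 1.39%. With a robust estimate of the spread, chosen after seeing the data, its adjusted p against the typical miRNA was 0.599 in edgeR's test in place of 0.000682, and without DMSO replicates 1 and 2 its value was -0.28 in place of 1.51.

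**Figure D2:**
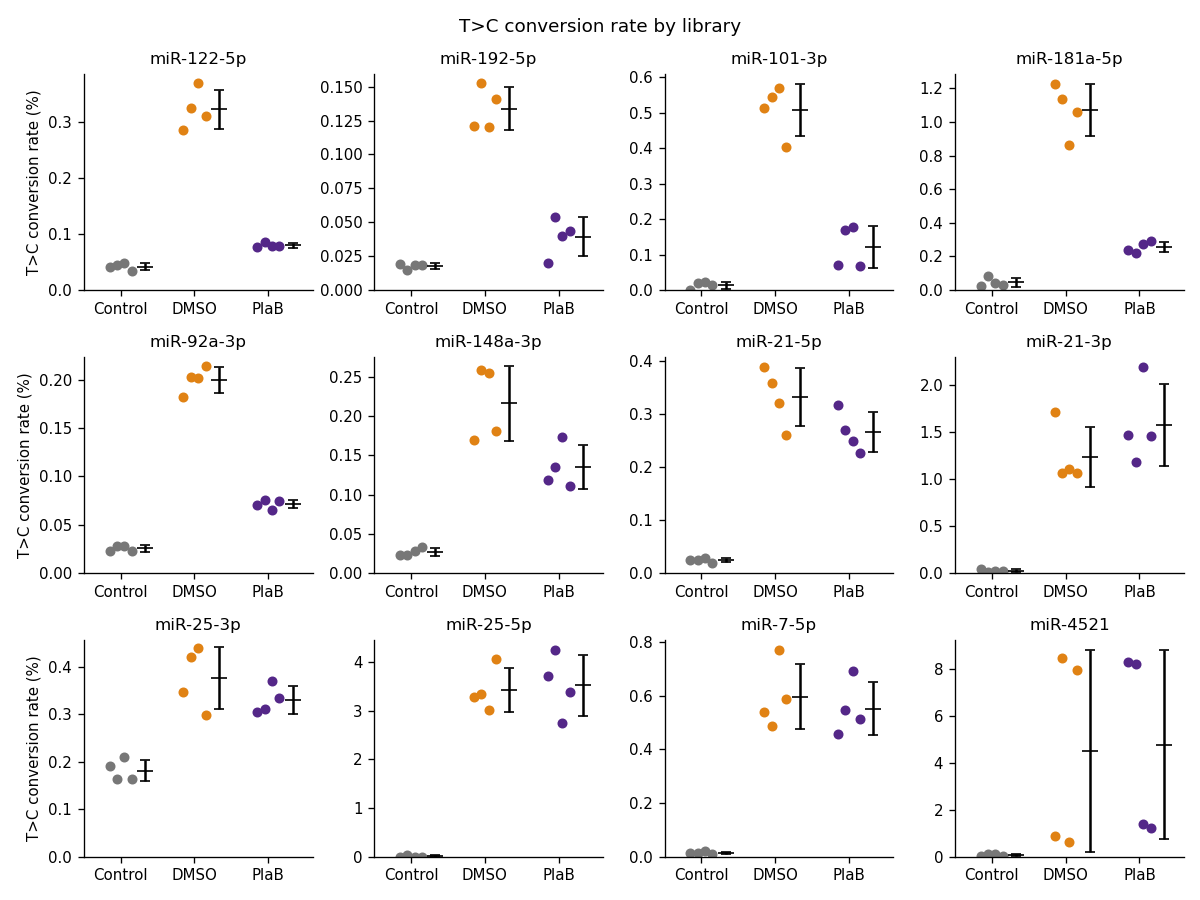
T>C conversion rate (%) of 12 miRNAs in each of the 4 Control, DMSO and PlaB libraries (points in the order of replicates 1 to 4), with the mean and SD of each group as a bar at the right. The PlaB points of miR-122-5p, miR-192-5p, miR-101-3p, miR-181a-5p and miR-92a-3p lie below all their DMSO points, those of miR-21-3p, miR-25-5p and miR-7-5p overlap them, and miR-4521 splits into libraries near 8% and libraries at or under 1.39% in both groups.

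For each of the 120 miRNAs labelled above background (rate higher in DMSO than in Control, edgeR's test over the 12 libraries), residual synthesis was taken as PlaB minus Control over DMSO minus Control. The 120 were selected by their DMSO rates, which also form the denominator. This can draw the residuals down, by an amount that was not tested. The median was 0.318, and within the experiments of replicates 1 to 4 it was 0.294, 0.316, 0.280 and 0.358. The lower quartile was 0.190 and the upper quartile 0.584. The residual was under 0.25 for 47 miRNAs, at or under 0 for 6 and above 1 for 9. The last included miR-21-3p (1.28), miR-25-5p (1.03), miR-148a-5p (1.05) and miR-4521 (1.07), while the values of let-7g-5p and miR-450a-5p rest on 12 and 14 conversions in DMSO.

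Of the liver list, 10 of 12 miRNAs were measured. Of them 8 had a lower rate in PlaB, where 45.3% of all 159 miRNAs and 53 of the 73 well-covered ones did. Against the typical miRNA, 3 lost more (8.18% of all) and 1 lost less (5.66% of all). These shares of all miRNAs, here and for the lists below, are not matched for depth. Of the 60 miRNAs over 1000 CPM, fitted alone, 9 lost more and 7 lost less. The median log2 fold change of the list was -1.71, against -1.24 over all 159. miR-192-5p, which is co-transcribed with miR-194 and induced by p53, had 0.121, 0.153, 0.121 and 0.141% in DMSO and 0.0203, 0.0540, 0.0397 and 0.0439% in PlaB. The groups did not overlap, PlaB replicate 1 was near the Control mean of 0.0179%, and the log2 fold change was -1.82 (SE 0.20). miR-194-5p, from MIR194-1 on chromosome 1 and MIR194-2 beside MIR192 on chromosome 11, had 0.208, 0.242, 0.176 and 0.168% in DMSO and 0.0747, 0.0743, 0.0641 and 0.0504% in PlaB (log2 fold change -1.59, SE 0.15). Both passed against the typical miRNA (adjusted p = 0.00741 and 0.0212, edgeR), but lost that call in 8 of 16 and 10 of 15 alternatives, including the one with no replicate block.

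miR-885-5p (-2.03), miR-483-3p (-2.24), miR-122-3p (-2.35) and miR-27b-3p (-1.09) also had lower rates (log2 fold changes of the rate), within 0.90 to 1.25 below the typical miRNA for the first 3 and 0.04 above it for miR-27b-3p, none of them past that test. The lower rate of miR-122-3p did not pass in 7 of 16 alternatives, nor that of miR-483-3p in 2 of 15, including the one without DMSO replicate 2. miR-148a-3p, an abundant hepatocyte miRNA that targets the LDL receptor, also had a lower rate. It lost less than the typical miRNA, a call that held in 6 of 16 alternatives. Its rates were 0.169, 0.259, 0.255 and 0.181% in DMSO and 0.119, 0.136, 0.174 and 0.111% in PlaB, giving a log2 fold change of -0.68 (SE 0.15) and 0.46 above the typical miRNA (adjusted p = 0.0242, edgeR). Its other arm miR-148a-5p, at 1.29% ± 0.322 in DMSO and 1.35% ± 0.226 in PlaB (SD, n = 4), did not pass in either test (95% interval of its log2 fold change -0.94 to 1.11). For miR-378a-3p there were 5 conversions in DMSO against 2 in PlaB.

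Of the 24 miRNAs of an oncogenic list 20 were measured, 12 had a lower rate in PlaB (45.3% of all), 2 lost more (8.18% of all) and 3 lost less (5.66% of all) than the typical miRNA, with a median log2 fold change of -1.46. Those that lost less were miR-21-5p, miR-21-3p and miR-25-3p, described above. miR-92a-3p lost more, with 0.182, 0.203, 0.201 and 0.214% in DMSO and 0.0705, 0.0755, 0.0656 and 0.0744% in PlaB. Its log2 fold change was -1.48 (SE 0.09), 0.35 further down than the typical miRNA (-0.35, adjusted p = 0.00105, edgeR, lost in 5 of 15 alternatives). miR-1269a, which is raised in liver tumours and has no annotated host, fell from 0.556% ± 0.109 to 0.178% ± 0.0525 (SD, n = 4), a log2 fold change of -1.68. Its call against the typical miRNA (adjusted p = 0.0438, edgeR) was lost in 11 of 16 alternatives.

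All 3 measured members of the MIR182 to MIR183 cluster had lower rates (45.3% of all) and groups that did not overlap (42.8% of all), with log2 fold changes of -1.35 for miR-182-5p, -1.79 for miR-183-5p and -2.27 for miR-96-5p. miR-222-3p fell too (-1.63, adjusted p = 0.000176, edgeR), while its cluster partner miR-221-3p, at -1.08 (95% interval -2.41 to 0.26), did not pass.

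Of the 29 miRNAs of a tumour suppressor list 21 were measured, 11 had a lower rate, 2 lost more (miR-101-3p and miR-128-3p) and 1 lost less (miR-7-5p) than the typical miRNA, with a median log2 fold change of -1.45. These counts lie near the 45.3%, 8.18% and 5.66% of all miRNAs. miR-128-3p, from introns of R3HDM1 and ARPP21, had 0.198, 0.236, 0.355 and 0.268% in DMSO and 0.0465, 0.0628, 0.0797 and 0.0702% in PlaB, 0.88 further down than the typical miRNA (-0.88, adjusted p = 0.00233, edgeR, lost in 3 of 15 alternatives). miR-26a-5p, among the 5 most abundant miRNAs, was barely labelled, with 24 conversions in DMSO and 11 in PlaB and a mean rate no higher than in Control, and its change could not be measured at this depth.

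4 miRNAs thought to bypass the Microprocessor or to form from spliced introns were measured, of 7 listed. miR-320b and miR-6777-5p had no conversion in DMSO or PlaB. For miR-320a-3p there were 29 conversions in DMSO against 11 in PlaB, and miR-484, whose hairpin is the capped end of a short transcript, had 23 and 15. None passed, and the 95% interval of the log2 fold change of miR-320a-3p, -3.37 to 1.45, leaves both a fall and a rise possible.

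The genomic clusters are described by their counts and medians, beside 45.3% of all miRNAs with a lower rate, 42.8% with PlaB below DMSO in all libraries and a median of -1.24, and no difference between clusters was tested. In the MIR532 to MIR502 cluster within CLCN5 on chromosome X, 5 of 6 measured miRNAs had a lower rate and groups that did not overlap, with a median log2 fold change of -2.85. miR-501-3p had 0.681, 0.662, 0.946 and 0.764% in DMSO and a conversion only in replicate 2 of PlaB (0.135%). miR-532-5p fell from 55 conversions to 4, miR-500a-3p from 92 to 11 and miR-362-5p from 109 to 15, while miR-660-5p (-1.09, adjusted p = 0.497, edgeR) did not pass. None of the 6 passed against the typical miRNA, the nearest being miR-501-3p (adjusted p = 0.0641, edgeR).

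In the MIR25 to MIR106B cluster within MCM7, only miR-93-5p (0.196% ± 0.0184 to 0.0998% ± 0.0248, SD, n = 4, a log2 fold change of -0.998) of 6 measured miRNAs passed as lower, and the median was -0.59. In the related MIR17 to MIR92A1 cluster on chromosome 13, 4 of 7 measured miRNAs had a lower rate, with a median of -1.48. These were miR-17-5p (-1.45), miR-19b-3p (-1.53), miR-20a-5p (-1.56) and miR-92a-3p (-1.48). Multi-mapping reads made up 90.3% of those of miR-19b-3p and 97.5% of those of miR-92a-3p. Their copies in this cluster and at MIR19B2 and MIR92A2 on chromosome X therefore cannot be told apart.

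The MIR23B to MIR24-1 and MIR24-2 to MIR23A clusters, which share miR-24-3p, each had a median of -0.84, its value, and 2 of 3 measured miRNAs with a lower rate. In the MIR450B to MIR424 cluster (5 miRNAs, 2 to 36 conversions in PlaB) and the MIR421 to MIR374B cluster (3 miRNAs, 0 to 3 conversions) none passed.

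Within a seed family, differences between members were not tested. Counts of lower rates stand beside 45.3% of all 159 miRNAs and 53 of the 73 well-covered ones. In the AUUGCAC family printed above, miR-92a-3p (-1.48) and miR-92b-3p (-1.49) both fell, and miR-25-3p (-0.18) lost less than the typical miRNA. miR-92b-3p, from a hairpin overlapping an exon of THBS3-AS1 on chromosome 1, had 3.05, 2.57, 3.08 and 3.12% in DMSO and 1.13, 1.10, 1.06 and 0.900% in PlaB. miR-32-5p, from an intron of TMEM245, had only 10 conversions in DMSO and 7 in PlaB.

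In the AGCAGCA family, miR-16-5p fell from 0.223, 0.290, 0.392 and 0.266% to 0.0909, 0.138, 0.112 and 0.107% (log2 fold change -1.37, SE 0.10), and miR-15a-5p (-1.54) also had a lower rate. miR-15b-5p, which lies in the same intron of SMC4 as MIR16-2, had 0.123, 0.0909, 0.168 and 0.109% in DMSO and 0.132, 0.0984, 0.0955 and 0.130% in PlaB. Its groups overlapped, with a log2 fold change of -0.08 (95% interval -0.73 to 0.57) and 1.05 above the typical miRNA (adjusted p = 0.0142, edgeR). Multi-mapping reads made up 99.7% of those of miR-16-5p, so the copies at MIR16-1 in DLEU2 and MIR16-2 in SMC4 cannot be told apart.

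Of the GUAAACA family, miR-30a-5p (-1.26) and miR-30c-5p (-1.25) fell close to the median and miR-30e-5p (-0.43, 95% interval -1.09 to 0.23) did not pass. The ACCCGUA family had lower rates in all 3 members, miR-99a-5p (-1.24), miR-99b-5p (-0.67) and miR-100-5p (-1.996). Its median of -1.24 was that of all miRNAs, and no member passed against the typical miRNA. Of the AAAGUGC family, miR-17-5p, miR-20a-5p and miR-93-5p had lower rates and miR-106b-5p (-0.63, adjusted p = 0.408, edgeR) did not pass. In the let-7 family, let-7a-5p (99 conversions to 8) and let-7f-5p (56 to 6) had lower rates, and let-7e-5p and let-7g-5p had 1 and 15 conversions in PlaB. Pooled over the 4 members, the rate was 0.0453% in DMSO, 0.0133% in PlaB and 0.0176% in Control. The PlaB rate was thus under background, and only 2 of the 4 were labelled above background in DMSO.

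By place of the hairpin, a lower rate was measured for 19 of 42 exonic miRNAs (median log2 fold change -1.11), 43 of 96 intronic ones (-1.25), 5 of 9 with copies in different contexts (-1.43) and 5 of 12 with no annotated host (-1.08). These shares lie close to the 45.3% of all miRNAs. The places are those of the matched hairpins, and miRNAs with multi-mapping reads may have further copies. Over the 73 well-covered miRNAs, the change of the rate had a Pearson r of 0.0877 with the log2 CPM in Control, and over the 64 of them with a matched sequence an r of 0.107 with the number of U in the mature miRNA. These are descriptions across miRNAs of the same libraries, which are not independent.

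Arms of one hairpin come from the same transcript. Both arms were measured for 25 hairpins, and in each library the log2 ratio of the rate of the less abundant to that of the more abundant arm was compared between PlaB and DMSO, with 0.5 conversions added to each count. Over the 25 pairs, none passed after adjustment (smallest adjusted p = 0.143, two-sided exact permutation test of 4 against 4, whose smallest p is 0.0286), so no pair could have passed alone. Groups did not overlap for 5 pairs, which were picked for mention after their values were seen. The less abundant arm kept more for miR-181a-2-3p against miR-181a-5p (1.61 on the log2 scale) and miR-339-5p against miR-339-3p (1.81). It kept less for miR-32-3p (-3.31) and miR-99b-3p (-1.33). In PlaB, miR-32-3p had 3 conversions and miR-32-5p 7, and miR-99b-3p had 9. miR-339-5p had 25 there and miR-339-3p 16. The 0.5 added weighs most on ratios of such small counts. miR-181a-5p also comes from MIR181A1, in another host gene, and 89.2% of its reads are multi-mapping. Its pair therefore does not compare the arms of MIR181A2 alone. miR-181a-2-3p had 3.54, 4.05, 4.17 and 3.36% in DMSO and 2.96, 2.10, 3.75 and 2.46% in PlaB. The fifth pair was that of MIR335, for which no ratio is given, since miR-335-5p had 0 conversions in PlaB and 73 in DMSO. miR-335-3p had 17 and 12.

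Total reads differed little between the groups. CPM values are shares of a library, and fewer cells cannot be told apart from less RNA per cell in them. In edgeR's test of read counts with the experiment as a block, 2 of 159 miRNAs had fewer reads in PlaB (1.26%) and 1 had more (0.629%), with 21 at an unadjusted p under 0.05. Without the block none passed and 4 had an unadjusted p under 0.05. The median size of the log2 change was 0.092, against a median SE of 0.098. The 95% interval lay within 0.5 of 0 on the log2 scale for 142 of 159 miRNAs, among them 66 of the 72 whose rate fell.

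miR-122-5p had 105331, 66716, 72730 and 91576 CPM in DMSO and 90874, 59152, 87000.1 and 81789 CPM in PlaB. Its groups overlapped, and the log2 change of its reads was -0.03 (95% interval -0.26 to 0.20) where that of its rate was -2.01. For miR-21-5p the log2 change of the reads was 0.06 (95% interval -0.16 to 0.28), and for miR-181a-5p it was 0.13 (95% interval -0.05 to 0.31).

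The miRNAs with fewer reads were miR-92b-3p, at 889, 683, 761 and 810 CPM in DMSO and 577, 490, 551 and 540 CPM in PlaB (log2 change -0.49, SE 0.08, adjusted p = 0.0179, edgeR), and miR-374b-5p (-0.52, adjusted p = 0.0380, edgeR). miR-4326, from an intron of ARFGAP1, had more, at 166, 154, 175 and 154 CPM in DMSO and 244, 218, 235 and 208 CPM in PlaB (0.52, adjusted p = 0.0380, edgeR). The groups of miR-92b-3p and miR-4326 did not overlap, a separation seen below DMSO for 4 miRNAs (2.52%) and above it for 2 (1.26%). All 3 calls were lost without the block and without DMSO replicate 1 or 2. miR-92b-3p was the only miRNA with both a lower rate and fewer reads. Over the 73 well-covered miRNAs the change of reads and that of the rate had a Pearson r of 0.0356, a description over values from the same libraries.

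The 10 most abundant miRNAs, miR-21-5p, miR-92a-3p, miR-122-5p, miR-16-5p, miR-26a-5p, miR-103a-3p, miR-194-5p, miR-7-5p, miR-30e-5p and miR-24-3p, held 64.0 to 67.4% of all reads. Of them 7 had a lower rate in PlaB, where 45.3% of all 159 miRNAs and 53 of the 73 well-covered ones did. Against the typical miRNA, 4 lost more (8.18% of all) and 2 lost less (5.66% of all). These shares of all miRNAs are not matched for depth. Of the 60 miRNAs over 1000 CPM, fitted alone, 9 lost more and 7 lost less. miR-103a-3p, from introns of the pantothenate kinase genes PANK3 and PANK2, fell from 0.120% ± 0.0436 to 0.0374% ± 0.0111 (SD, n = 4), a log2 fold change of -1.64, while its reads changed by 0.41 (adjusted p = 0.198, edgeR). Its call against the typical miRNA (adjusted p = 0.0359, edgeR) held in 5 of 15 alternatives, and 74.2% of its reads are multi-mapping.

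**Figure D3:**
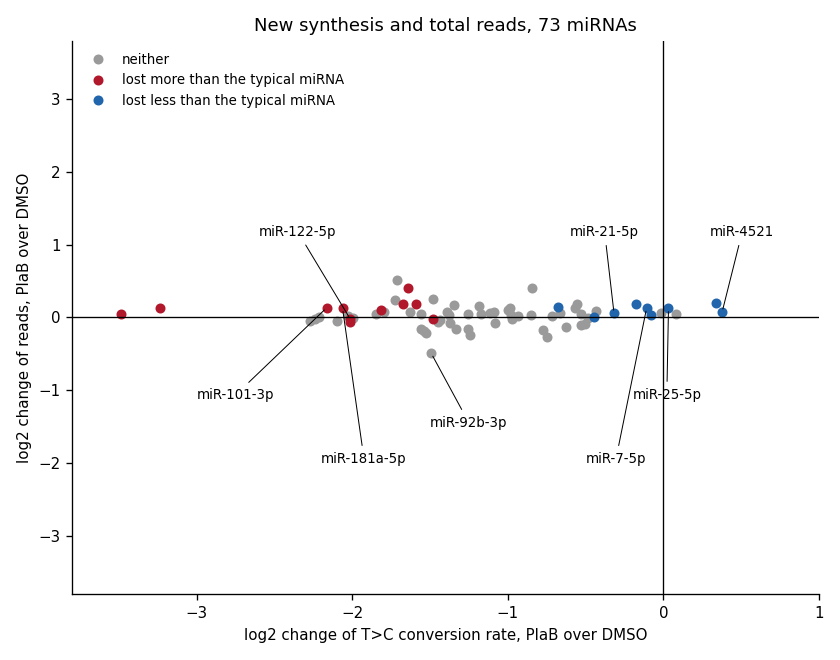
Log2 change of reads (vertical axis) against log2 change of the T>C conversion rate (horizontal axis), PlaB over DMSO, for the 73 miRNAs with a mean of 20 or more conversions, coloured by the test against the typical miRNA. Points spread over the rate from -3.49 to 0.38 and stay close to 0 in reads, miR-92b-3p lying lowest at -0.49.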

How the data were processed

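Small RNA libraries from 12 Huh7 samples were made by the authors with the NEXTflex kit after alkylation of 4SU. They trimmed reads with Trim Galore and 4 bases at each end, kept reads of up to 30 bases, and counted them on GRCh38 and miRBase version 22 with SLAM-DUNK (SLAMseq workflow 1.0.0), without a mapping quality minimum, so that reads of identical copies are shared. Their deposited tables hold counts (reads, covered T positions, T>C conversions, reads with a conversion, multi-mapping reads), the authors' CPM and the authors' conversion rate as a fraction. CPM and rates equalled the values recomputed from the counts.

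Counts were tested with edgeR 4.0.16 (R 4.3.3) as given in the report, with TMM factors for reads and the experiment as a block. A miRNA's spread was shared across miRNAs, which makes p-values of well-covered miRNAs very small. Alternatives were no block, all 12 libraries, reads with a conversion, DESeq2 1.42.0, RLE factors, other filters, each library left out and, added after seeing the data, a robust spread. Fits were checked on simulated data. Other steps used Python 3.11.15, numpy 2.4.6, scipy 1.17.1, pandas 2.3.3 and matplotlib 3.10.9. Clusters are hairpins within 10000 bases on a strand, placed by GENCODE version 44. Named were the 10 largest decreases of the rate without overlap, up to 8 miRNAs in each direction against the typical miRNA, the miRNAs called for reads (up to 5 in each direction, of which 3 were called), members of the liver and oncogenic lists, examples from clusters and families of 3 or more, and the 10 most abundant miRNAs, while other names were chosen after their values were seen. The miRNAs and lists were chosen with earlier results of these data known.

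The methods place the 3 conditions in each of 4 independent experiments. Deviations of log2 CPM correlated between libraries of one experiment with r from 0.370 to 0.777 (median 0.567) and between different ones with a median of -0.224. For log2 rates of the 73 well-covered miRNAs, r ran from -0.040 to 0.281 within an experiment (median 0.118). Between different experiments it ran from -0.259 to 0.260 (median -0.055), so the ranges largely overlapped. Intervals from edgeR rest on the spread left after the experiment block, which is shared across miRNAs. The spread of a single miRNA between experiments, such as that of miR-4521, can be wider than its interval. The limits given for counts of 0 cover counting error only, since no molecular identifiers were counted.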

Additional observations from a re-analysis of the deposited data

Results flagged for a closer look

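Of 120 groups of 4 libraries examined for a value apart from the other 3 (Dixon's test at its 95% critical value), 8 held one, where chance gives about 1 in 20. miR-21-3p had 1.71% in DMSO replicate 1 and 1.06 to 1.10% in the other DMSO libraries. miR-92b-3p had 2.57% in DMSO replicate 2, below 3.05 to 3.12% in the others. miR-30e-5p had 0.0122% in DMSO replicate 3, against 0.0224 to 0.0242%. In PlaB, miR-455-5p had 0.392% in replicate 1 and 0 to 0.0546% in the others. For miR-501-3p (0.135% in replicate 2), miR-942-5p (0.0815% in replicate 3), miR-331-3p (0.0280% in replicate 2) and miR-378a-3p (0.0116% in replicate 4), the other 3 PlaB libraries had no conversion.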

How the results depend on the processing

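The number of miRNAs with a lower rate in PlaB was 46 of the 60 over 1000 CPM, 41 without DMSO replicates 1 and 2 and 51 to 64 with each library left out, and that with a higher rate 0 to 1 in the last fits (miR-4521 without DMSO or PlaB replicate 4). The number that lost more than the typical miRNA was 5 with all 12 libraries in one fit, 25 with the pooled library rate, 8 without DMSO replicates 1 and 2 and 3 to 11 with each library left out. The fits without DMSO or PlaB replicate 3 gave the 3. The number that lost less was 6 to 8 with each library left out. Fewer reads were called for 0 miRNAs with no replicate block, 1 with all 12 libraries, 0 over 1000 CPM, 0 without DMSO replicates 1 and 2 and 0 to 3 with each library left out. More reads were called for 0 miRNAs with no replicate block, over 1000 CPM, with filterByExpr and without DMSO replicates 1 and 2, and for 0 to 6 with each library left out. Without the replicate block 75 miRNAs had a lower rate, 9 lost more and 7 lost less. The block changed no other count by over 1.5 times.

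The difference of the mean rates was -0.165 to -0.146 with each library left out (exact p = 0.0571, the smallest 3 against 4 allow), -0.149 without DMSO replicates 1 and 2 (exact p = 0.133) and -0.158 as pairs (exact p = 0.125). The median residual synthesis was 0.392 without subtraction of Control.

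Of the repeats for single miRNAs, 1054 kept direction and side of the threshold, 191 lost and 8 gained the call, and 23 turned sign. Turned, as log2 changes of the rate, were miR-4521 (-0.207 from reads with a conversion, -1.40 without DMSO replicates 1 and 2, -0.740 to 1.44 with each library left out; against the typical miRNA -0.281 without DMSO replicates 1 and 2), miR-4326 (0.035 from reads with a conversion), miR-25-5p (-0.201 without DMSO replicates 1 and 2) and, with a library left out, miR-25-5p (-0.0715 to 0.136), miR-15b-5p (-0.194 to 0.158), miR-26a-5p (-1.55 to 0.679), miR-378a-3p (-3.60 to 0.182) and miR-4326 (-0.862 to 0.125). The cause was not tested. Depth limits the test to large changes where PlaB libraries hold few conversions.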
